A study of Mus musculus with 12 samples.

Results

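The genes described here are 33 markers of astrocytes and radial glia, read from whole primary somatosensory cortex of male mice at postnatal day 7. They were taken by symbol from the 24452 gene symbols of the deposited files, and all 33 were found and passed the filter on low counts. The study crossed genotype with ethanol exposure in 4 groups of 3 libraries. These were wild-type (WT) mice given saline, WT mice given ethanol (EtOH), p53 knockout (KO) mice given saline and p53 KO mice given ethanol. All mice were on the C57BL/6 background, and the cortex was removed 8 hours after the last intraperitoneal injection, so the saline groups carry the handling and the injection too. The KO allele was Trp53tm1Tyj, and the KO mice lack functional p53 in every cell from conception rather than in 1 cell type. Each library came from a separate mouse by the study's methods, and the p-values below measure the spread between such libraries. Libraries are named by group and by the number in their label, for example WT saline 1.

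Radial glia are the stem cells that line the embryonic ventricle, and in the cortex of the first postnatal week most of them turn into astrocytes. Astrocytes of that age still divide, spread through the layers and begin to take up glutamate and potassium, to clear water through channels at the vessel wall, and to couple to each other through gap junctions. The change from radial glia to astrocyte is driven by Notch signaling, cytokine receptors and nuclear factor I proteins, and it moves cells from intermediate filaments such as nestin and vimentin toward glial fibrillary acidic protein. Ethanol given in this window is used as a model of exposure in late pregnancy.

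Depth differed widely between libraries. Total counts ran from 719735 in KO ethanol 12 to 17066392 in KO saline 8, and 1 count in KO ethanol 12 was worth 1.67 normalized CPM, the count scaled to library size. In that library 6 of the 33 genes had under 10 counts, and the other 27 had 10 or more in every library. The scaling factor that sets libraries on a common scale (TMM) was lowest in WT saline 1, at 0.564. The names of WT saline 3 and KO ethanol 12, the smallest libraries of the series, open with a different letter from the other names, and the labels do not say what the letter stands for. By the study's methods part of the cortex samples were cut by laser microdissection and the others by hole punch, and the labels do not say which library was which, so the part of the dissection in the results below was not tested. Trp53, the targeted gene, had 3.67 to 26.2 CPM in the WT saline libraries, 7.23 to 20.03 in WT ethanol. It had 11.1 to 27.6 CPM in the KO saline libraries and 23.4 to 28.7 in KO ethanol. WT and KO overlapped in saline, and after ethanol the KO libraries lay above the WT libraries. The knockout allele still makes RNA from the end of the gene, so that a count over the whole gene does not check the genotype labels.

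Several libraries stood apart in ways that touched the glial genes. WT ethanol 4 held the highest value of 12 of the 33 genes, against 15.9% of all genes tested. WT saline 3 held the lowest value of 10 of the 33, against 16.2% of all genes. Across genes, the level of a library relative to the mean of all libraries fell with transcript length in WT saline 1 (Spearman rho -0.41), WT saline 13 (-0.36) and KO ethanol 12 (-0.35), and rose with it most in KO saline 9 (0.56). Markers of ependymal cells and choroid plexus, which are not part of the cortex, were highest in WT ethanol 4, where they summed to 5196 CPM, followed by KO saline 9 (2289.9) and KO ethanol 18 (2244), and summed to between 1.67 and 416 in the other libraries. In such bulk tissue, fewer cells of a type and less RNA per cell cannot be told apart.

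**Figure D1:**
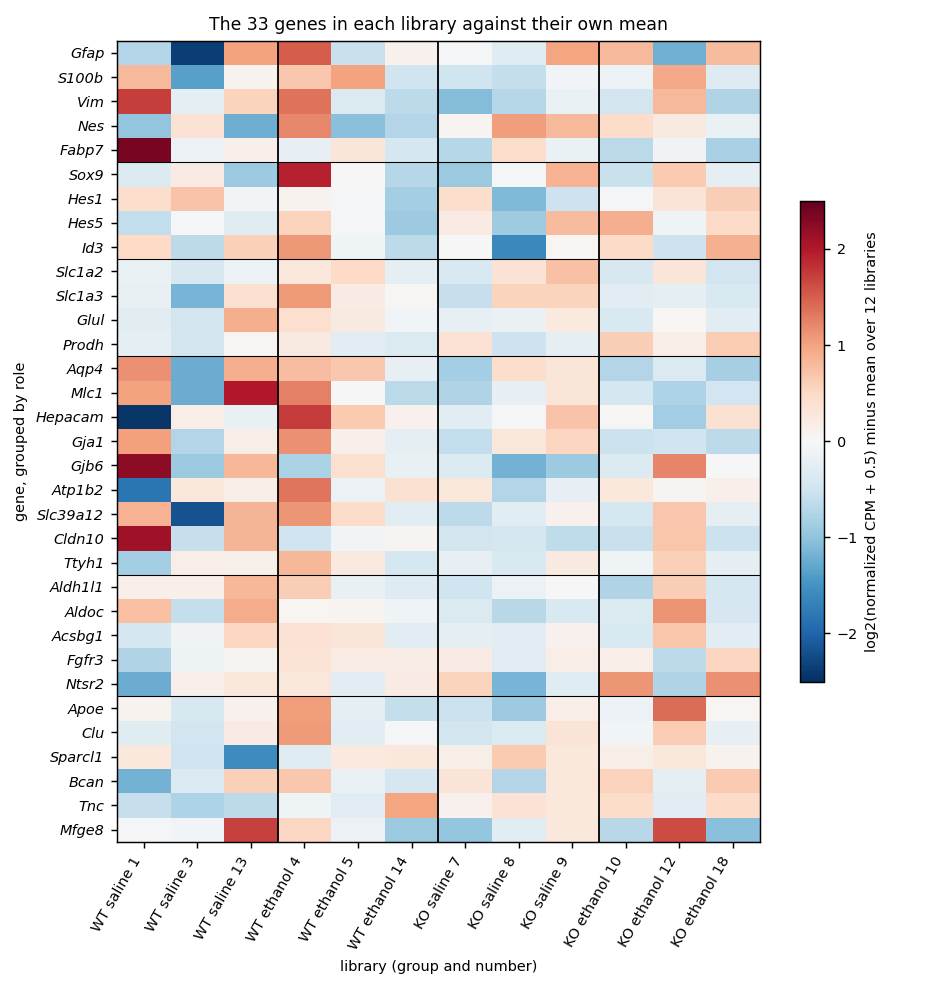
Each row is 1 of the 33 genes, grouped by role, and each column 1 library. Color gives log2(normalized CPM + 0.5) minus the mean of that gene over the 12 libraries, and WT ethanol 4 holds the highest value of 12 genes and WT saline 3 the lowest of 10.

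The 33 genes covered a wide range of abundance. Levels between genes were compared only per length, as the authors' RPKM (reads scaled by transcript length and library size), which are also set to the same distribution in every library. By the median over 12 libraries, Fabp7, the brain fatty acid binding protein of radial glia and young astrocytes, was highest at 946 RPKM. It was followed by Apoe, the main lipid carrier of the brain, at 572, Sparcl1, a secreted protein that promotes synapse formation, at 398, and Glul, glutamine synthetase, at 177. The lowest were Sox9 (2.41), Nes (1.85) and Prodh (1.75). Ranges over libraries were broad, with Fabp7 from 387 to 1699 RPKM and Apoe from 283 to 2771, so neighbors in that order overlapped. The highest library held 4.97 times the CPM of the lowest for the median member, against 4.29 for the median of all genes tested with a count in every library. Hepacam spanned 19.9-fold, Gfap 15.0-fold and Gjb6 11.6-fold, whereas Acsbg1, an acyl-CoA synthetase, spanned 2.22-fold and Slc1a2 2.31-fold.

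The first comparison asks which glial genes ethanol altered in WT mice. At an adjusted p up to 0.30, the study's own level for finding genes, 5 of the 33 were called by the quasi-likelihood test of edgeR. Of all 14739 genes tested, 22.5% were called, so the 5 of 33 are not more than the background. Tnc and Hepacam were higher after ethanol and Cldn10, Fabp7 and Gjb6 lower, where 12.1% of all genes were called higher and 10.4% lower. None of the 33 had an adjusted p under 0.05, which 0.0746% of all genes reached, and 4 had an unadjusted p under 0.05, against 18.3% of all genes. The median log2 fold change over the 33 genes was 0.23, beside 0.06 over all genes. Only Tnc and Fgfr3 had WT ethanol and WT saline values that did not overlap, and both were higher after ethanol, while 19.6% of all genes were apart. With 1 library left out at a time, the count of 5 fell to 0 without WT saline 1 or WT ethanol 4, to 1 without WT ethanol 14 and to 3 without KO saline 8, KO saline 9, KO ethanol 10 or KO ethanol 18, and rose to 11 without WT saline 3. In these fits the share of all genes moved in the same direction. It was 1.30% without WT saline 1, 0.476% without WT ethanol 4 and 5.54% without WT ethanol 14. It was 12.6% to 16.6% in the fits with 3 members and 48.7% without WT saline 3. Without WT ethanol 5 the count of members rose to 7 while the share of all genes fell to 20.4%. With library size alone in place of the TMM scaling, 9 were called higher and 0 lower, where 3547 genes were called higher and 504 lower in all and the median of all genes moved to 0.49.

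The second comparison gives the difference between genotypes before any ethanol, p53 KO saline against WT saline. It shares the 3 WT saline libraries with the first, so a high or low value in these enters both. Here 8 of the 33 genes were called, against 25.8% of all genes, again a share no higher than the background. Tnc and Nes were higher in KO saline, and Cldn10, Gjb6, Vim, Fabp7, Aldoc and Mlc1 were lower, where 12.4% of all genes were higher and 13.4% lower. At an unadjusted p under 0.05 there were 5 of the 33 against 19.6% of all genes, and at an adjusted p under 0.05 there were 0 against 0.0543%. The median log2 fold change of the 33 was -0.17, beside 0.04 for all genes. Tnc, which was higher, and Aldh1l1, which was lower, were the 2 genes whose groups did not overlap, as 22.9% of all genes did. The count of 8 fell to 0 without WT saline 1, KO saline 8 or KO saline 9, to 2 without KO saline 7, to 4 without WT saline 13 and to 5 without KO ethanol 10, and it rose to 15 without WT saline 3. Of all genes, 0.246% were called without WT saline 1, 0.0599% without KO saline 8 or KO saline 9, 9.57% without KO saline 7, 13.7% without WT saline 13, 18.8% without KO ethanol 10 and 50.4% without WT saline 3. With library size alone, 5 were called higher and 2 lower, where 3371 genes were called higher and 680 lower in all.

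Ethanol in KO mice gave no calls. Of the 33 genes, 0 passed at an adjusted p up to 0.30 by edgeR, as did 0% of all genes, and 0 had an unadjusted p under 0.05, against 3.15% of all genes. DESeq2 called 0 of the 33 and 3 genes in all. The median log2 fold change of the 33 was 0.22 (0.01 over all genes). None of the 33 had KO ethanol and KO saline values that did not overlap, against 10.8% of all genes. The lowest p-values belonged to Apoe (log2 fold change 0.96 ± 0.56, SE), Ntsr2, a neurotensin receptor of astrocytes (0.96 ± 0.56), Gjb6 (1.13 ± 0.69) and Aldoc (0.77 ± 0.48), each with an adjusted p of 0.999. Without KO ethanol 12, which held the highest Apoe, Aldoc and Gjb6 values of its group, the log2 fold changes were 0.30 for Apoe, 0.073 for Aldoc and 0.63 for Gjb6.

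Nor were genes called between KO ethanol and WT ethanol, where 0 of the 33 and 0% of all genes passed by edgeR, and DESeq2 again called 0 of the 33 and 3 genes in all. Gja1 alone had an unadjusted p under 0.05, against 3.24% of all genes. Gja1, Aqp4 and Slc1a3 were the 3 genes with groups that did not overlap, all lower in KO ethanol, where 12.7% of all genes were apart. The median log2 fold change of the 33 was -0.18 (-0.03 over all genes). The last test asks whether ethanol acted differently in the 2 genotypes. Gjb6 was the 1 member called, with a difference in the direction of KO, where 11.1% of all genes were called, 5.64% positive and 5.43% negative. Gjb6 and Cldn10 had an unadjusted p under 0.05, against 15.2% of all genes. Without WT saline 1, WT ethanol 4, WT ethanol 14, KO saline 8, KO saline 9 or KO ethanol 12 no member was called, without KO saline 7 or KO ethanol 18 there were 2, and without WT saline 3 there were 7. The share of all genes was at most 0.745% in the fits with 0 members, 11.4% to 12.1% in those with 2 and 33.8% in that with 7.

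**Figure D2:**
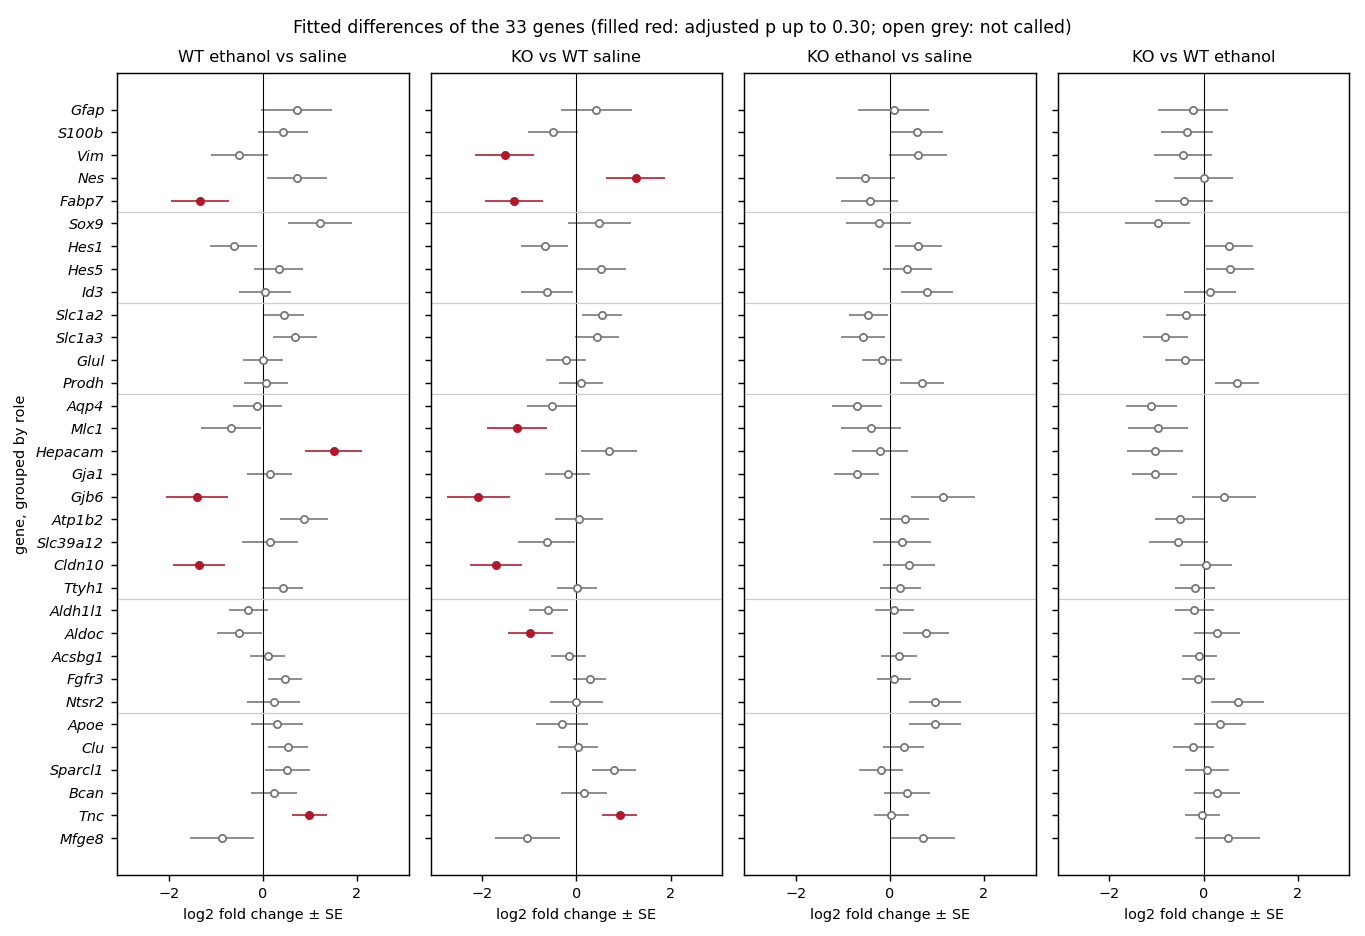
Log2 fold change (x axis) of each of the 33 genes (y axis, grouped by role) in 4 comparisons, with bars of ± 1 SE from the edgeR fit. Filled red points passed an adjusted p up to 0.30, which 5 genes did for ethanol in WT, 8 for KO against WT in saline and 0 in the other panels.

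Intermediate filament and cytosolic markers came first in the order of roles. Gfap, the filament protein of mature and reactive astrocytes, was at 89.1, 28.3 and 295 CPM in the 3 WT saline libraries and at 423, 100.1 and 158 in WT ethanol. It was at 143, 119 and 292 CPM in KO saline and at 259.9, 63.5 and 255 in KO ethanol. All 4 groups overlapped, the lowest value being that of WT saline 3 and the highest that of WT ethanol 4, and Gfap was not called in any comparison over the 12 libraries. Without WT saline 13, Gfap was called for ethanol in WT, at 1.94 (adjusted p = 0.266).

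Vim, the vimentin filament of radial glia and immature astrocytes, was at 236, 60.2 and 104 CPM in WT saline and at 33.05, 42.8 and 63.2 in KO saline. The KO values lay below all but that of WT saline 3, with a log2 fold change of -1.53 ± 0.62 (adjusted p = 0.207). In WT ethanol it was at 183, 54.8 and 44.6 CPM and in KO ethanol at 51.4, 124 and 41.5, and neither ethanol comparison was called. Without WT saline 1 the difference between genotypes was -0.85 (adjusted p = 0.575), and Vim was called in 8 of the 12 fits that left out 1 library.

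Nes, the nestin filament of neural stem cells, went the other way from Vim between genotypes. It was at 5.51, 14.9 and 4.61 CPM in WT saline and at 12.1, 24.1 and 20.5 in KO saline, with a log2 fold change of 1.26 ± 0.63 (adjusted p = 0.282). The groups overlapped through WT saline 3. In WT ethanol the values were 26.8, 5.28 and 6.68 and in KO ethanol 15.9, 13.4 and 10.1 CPM, so that WT ethanol 4 stood apart from its group. Nes is 1 of the genes with under 10 counts in KO ethanol 12, and its call held in 5 of 12 fits that left out 1 library, with 0.94 (adjusted p = 0.552) without WT saline 13 and 1.04 (adjusted p = 0.557) without WT saline 1.

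Fabp7 (chr10:57784923-57788451) carried the widest gap between measures. Its CPM were 3499, 609.8 and 739.7 in WT saline, 583, 831 and 501 in WT ethanol, 413, 922 and 603 in KO saline and 424, 632 and 383 in KO ethanol. WT saline 1 thus stood far above the rest, and the other 2 WT saline libraries lay within the range of the other groups. The log2 fold change was -1.34 ± 0.62 for ethanol in WT (adjusted p = 0.267) and -1.32 ± 0.62 for KO against WT in saline (adjusted p = 0.255). Without WT saline 1 these were -0.11 (adjusted p = 0.941) and -0.08 (adjusted p = 0.960). In the authors' RPKM, which rank each library onto a common distribution, WT saline 1 was not high. Fabp7 was at 891, 655 and 627 RPKM in WT saline, 1581, 1082 and 942 in WT ethanol, and 949, 1699 and 1415 in KO saline, and the log2 fold changes by limma turned to 0.71 and 0.88, with the lowest adjusted p at 0.476 and 0.378. Fabp7 is also the shortest of the 33 genes, with a transcript of 804 bases, and with the trend of each library over length and GC content removed its 2 log2 fold changes were -0.05 and -0.01. The remaining marker of the group, S100b, a calcium-binding protein of astrocytes, ranged from 8.74 to 47.5 CPM over the 12 libraries and was not called.

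**Figure D3:**
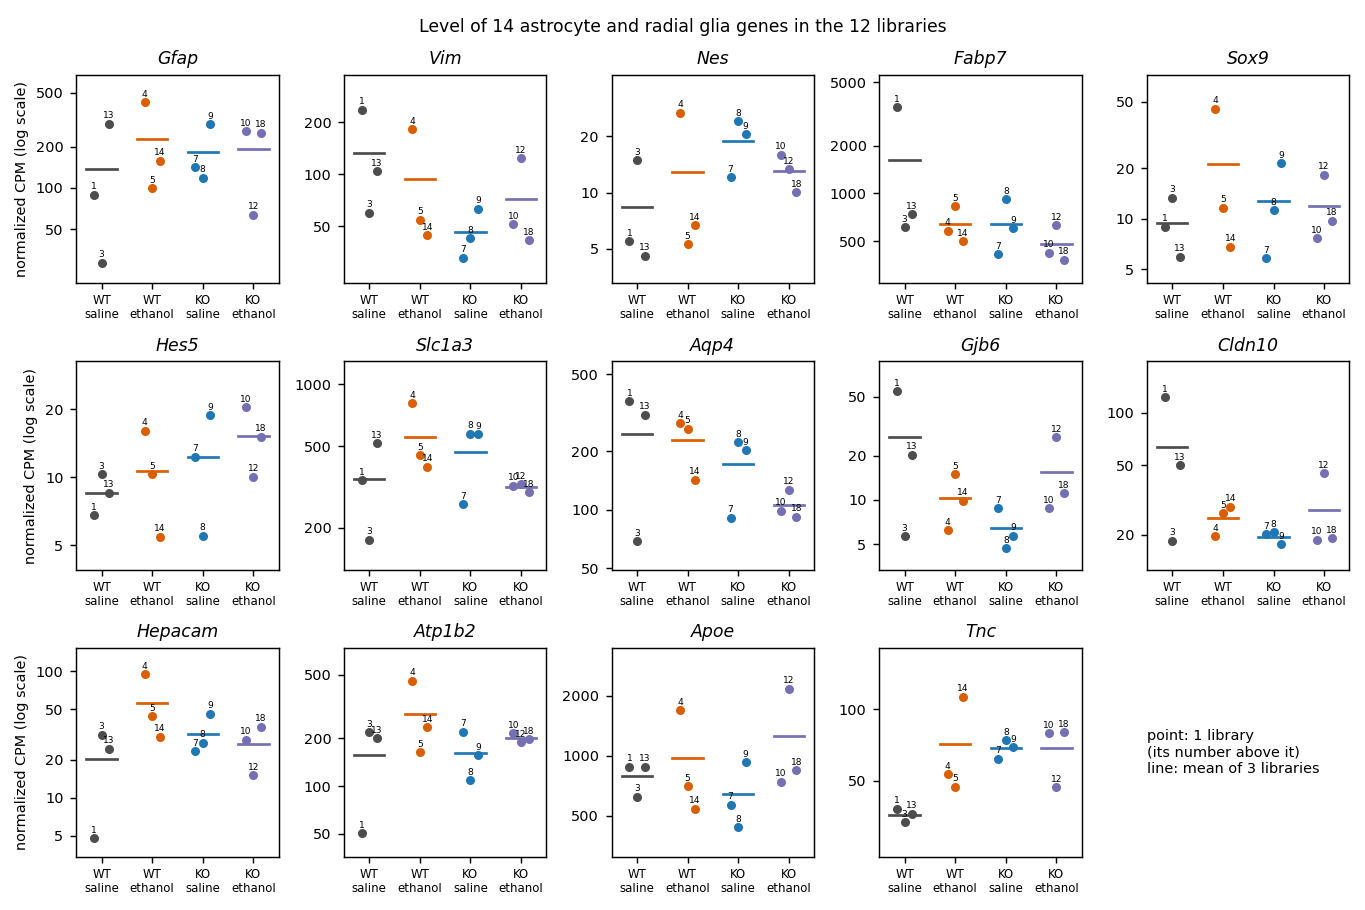
Normalized CPM on a log scale for 14 of the 33 genes in WT saline, WT ethanol, KO saline and KO ethanol. Each point is 1 library with its number and each line the mean of 3 libraries, and the high Fabp7, Gjb6 and Cldn10 points of WT saline 1 and the low Tnc points of all WT saline libraries can be read off.

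Transcription factors were not called in any comparison. Sox9, which sets the glial fate of neural stem cells, was at 9.00, 13.4 and 5.94 CPM in WT saline, 45.4, 11.7 and 6.85 in WT ethanol, 5.83, 11.3 and 21.5 in KO saline and 7.66, 18.4 and 9.77 in KO ethanol. Its log2 fold change for ethanol in WT was 1.22 ± 0.68 (adjusted p = 0.337), with WT ethanol 4 alone above the range of the other groups. Without WT ethanol 4 the value was 0.0095, and Sox9 was called in 8 of the 24 alternatives, among them the fit without WT saline 3. Hes1 and Hes5, repressors that Notch signaling induces and that hold back neuronal differentiation, were low throughout. Hes5 was at 6.80, 10.3 and 8.54 CPM in WT saline, 16.1, 10.3 and 5.45 in WT ethanol, 12.3, 5.505 and 18.9 in KO saline and 20.4, 10.0 and 15.1 in KO ethanol. All 4 groups overlapped, and both genes had under 10 counts in KO ethanol 12. Hes1 gave a log2 fold change of -0.62 ± 0.50 (adjusted p = 0.513) for ethanol in WT and 0.60 ± 0.51 (adjusted p = 0.999) in KO. Id3, an inhibitor of helix-loop-helix factors downstream of bone morphogenetic proteins, ranged from 14.6 to 97.7 CPM.

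Because Hes1 and Hes5 are targets of Notch signaling, promoters were searched on both strands for GTGGGAA, the core bound by RBPJ, the DNA-binding partner of Notch, and for the longer CGTGGGAA that contains it. Promoters of 300 bases (250 before the start and 50 from it, RefSeq sequence of build GRCm38.p6) were matched for 27 of the genes, 33 promoters in all. GTGGGAA was in 6 of these (18.2%), from the 4 genes Hes5, Tnc, Mfge8 and Aldoc, and 2 overlapping Tnc promoters hold the same site, beside 6.38% of all 32851 promoters, and CGTGGGAA was in 0 beside 0.734%. Hes1 is not among the 4, which by itself does not show that its promoter lacks the letters. A gene outside the 4 either lacked these letters in the window or had no promoter in the search. The promoter of Hes5, on the plus strand at chr4:154960673-154960972, holds a match on each strand, shown with the 7 letters in capitals.
Hes5: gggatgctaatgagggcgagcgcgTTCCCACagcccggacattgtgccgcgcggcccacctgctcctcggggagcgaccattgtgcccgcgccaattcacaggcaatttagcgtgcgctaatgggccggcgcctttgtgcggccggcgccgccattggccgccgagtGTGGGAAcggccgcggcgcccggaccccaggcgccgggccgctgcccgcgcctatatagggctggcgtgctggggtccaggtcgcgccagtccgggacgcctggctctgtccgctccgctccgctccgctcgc
The first capital run, at -226 from the start, reads TTCCCAC and is the match on the opposite strand, and the second is at -83. Such matches describe the letters of the window only. The 15 further genes of the Notch pathway were mostly not called. For ethanol in WT, 1 of the 15 was called, where 22.5% of all genes were. This was Notch1, which was higher (1.49 ± 0.57, adjusted p = 0.216). Notch1 was at 57.8 CPM in WT ethanol 4, at 14.5 and 15.1 in the other WT ethanol libraries and at 6.06, 14.4 and 11.2 in WT saline. Notch2 (0.96 ± 0.60), Mfng (-0.78 ± 0.51) and Notch3 (0.86 ± 0.65) followed without passing. Between genotypes in saline, 2 of the 15 were higher and 1 lower, with a median log2 fold change of 0.21, a count near the 25.8% of all genes called there.

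Genes of glutamate and amino acid handling were not called in any comparison. Slc1a3, the glutamate transporter GLAST of radial glia and astrocytes, was at 342, 174 and 515 CPM in WT saline and 809.7, 450.4 and 397 in WT ethanol, with a log2 fold change of 0.68 ± 0.47 (adjusted p = 0.434). It was at 259.7, 575 and 569.6 CPM in KO saline and 319.5, 326 and 298 in KO ethanol. All 3 KO ethanol libraries lay below all 3 WT ethanol libraries (-0.81 ± 0.47, adjusted p = 0.982). Slc1a2, the transporter GLT-1 that takes up most glutamate in the adult cortex, ranged from 498 to 1151 CPM, and its log2 fold change was -0.46 ± 0.42 for ethanol in KO. Glul ranged from 364 to 943 CPM, the highest value being in WT saline 13. Prodh, which starts the breakdown of proline, had 2.93 to 7.17 CPM and 3 counts in KO ethanol 12.

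Channels, junctions and transporters of the membrane were the largest role, with 9 of the 33 genes. For ethanol in WT, 1 of the 9 was called higher and 2 lower, where 12.1% of all genes were higher and 10.4% lower. Between genotypes in saline, 0 of the 9 were called higher and 3 lower, where 12.4% of all genes were higher and 13.4% lower. Gjb6 (chr14:57123301-57133612, mm10) encodes connexin 30, a gap junction subunit that astrocytes gain as they mature. It was at 54.6, 5.66 and 20.2 CPM in WT saline, 6.23, 14.9 and 9.84 in WT ethanol, 8.78, 4.68 and 5.70 in KO saline and 8.76, 26.7 and 11.04 in KO ethanol. WT saline 1 was the highest library and WT saline 3 among the lowest, so WT saline spanned nearly the whole range. The log2 fold change was -1.40 ± 0.66 for ethanol in WT (adjusted p = 0.274), -2.09 ± 0.67 for KO against WT in saline (adjusted p = 0.176) and 1.13 ± 0.69 for ethanol in KO (adjusted p = 0.999). The difference between the 2 ethanol effects was 2.53 ± 0.95 (adjusted p = 0.266). Without WT saline 1 the first was -0.42 (adjusted p = 0.799), the second -1.10 (adjusted p = 0.488) and the difference 1.55 (adjusted p = 0.449). Its reads were split over 2 transcripts, and the larger took 88.8% in 10 of the libraries but 35.4% in KO saline 9 and 76.7% in KO ethanol 18.

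Cldn10 (chr14:118854950-118874526), a claudin that marks astrocytes in the brain, was also highest in WT saline 1. It was at 123, 18.5 and 50.1 CPM in WT saline, 19.6, 26.6 and 29.0 in WT ethanol, 20.1, 20.8 and 17.7 in KO saline and 18.8, 45.1 and 19.1 in KO ethanol. WT saline overlapped the WT ethanol and KO saline groups through WT saline 3 only. The log2 fold change was -1.36 ± 0.54 for ethanol in WT (adjusted p = 0.226) and -1.71 ± 0.55 between genotypes in saline (adjusted p = 0.176). Without WT saline 1 these were -0.51 (adjusted p = 0.675) and -0.86 (adjusted p = 0.488), and without WT saline 3 they were -1.83 (adjusted p = 0.0380) and -2.17 (adjusted p = 0.0199). With the trend over length and GC content removed they were -1.31 and -1.61. The difference between the ethanol effects, 1.77 ± 0.78, had an adjusted p of 0.308.

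Hepacam (chr9:37367606-37386572), an adhesion protein of astrocyte endfeet that binds MLC1, rose after ethanol in WT. It was at 4.78, 31.4 and 24.4 CPM in WT saline and 95.2, 44.3 and 30.4 in WT ethanol (1.51 ± 0.61, adjusted p = 0.227). It was at 23.3, 27.2 and 46.1 CPM in KO saline and 28.7, 15.0 and 36.5 in KO ethanol. WT saline 1 was the lowest of the 12 libraries and WT ethanol 4 the highest, and the other 2 libraries of each group lay between 24.4 and 44.3. The log2 fold change was 1.00 (adjusted p = 0.472) without WT saline 1 and 0.90 (adjusted p = 0.588) without WT ethanol 4. Mlc1, the partner protein of endfeet, was at 247, 51.4 and 490.3 CPM in WT saline against 72.2, 107 and 152 in KO saline (-1.26 ± 0.64, adjusted p = 0.286). The Mlc1 call held in 4 of 12 fits that left out 1 library, and without WT saline 13 the value was -0.44.

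Aqp4, the water channel of endfeet, was at 363, 68.9 and 308 CPM in WT saline, 279, 261 and 143 in WT ethanol, 91.0, 222 and 203 in KO saline and 99.0, 127 and 92.4 in KO ethanol. WT and KO did not overlap after ethanol, and the log2 fold change of -1.11 ± 0.54 had an adjusted p of 0.982. Gja1, connexin 43, the other astrocyte gap junction subunit, showed the same separation, with 269, 132 and 104 CPM in WT ethanol and 83.8, 85.3 and 77.3 in KO ethanol (-1.04 ± 0.48, adjusted p = 0.982). The highest Gja1 value of the 12 libraries was that of WT ethanol 4. Atp1b2, a subunit of the sodium pump of glia, was at 50.5, 217 and 199 CPM in WT saline, 457, 163 and 233 in WT ethanol, 219, 109 and 156 in KO saline and 215, 189 and 196 in KO ethanol. Its log2 fold change for ethanol in WT was 0.87 ± 0.52 (adjusted p = 0.365), with the low value of WT saline 1 and the high value of WT ethanol 4. The zinc transporter Slc39a12 (5.14 to 53.8 CPM) and the anion channel gene Ttyh1 (153 to 495 CPM) were not called.

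Among metabolic enzymes and receptors only Aldoc, the aldolase of astrocytes, was called, and only between genotypes. It was at 489, 192 and 553 CPM in WT saline and 224, 179 and 222 in KO saline (-0.98 ± 0.48, adjusted p = 0.271), and the groups overlapped through WT saline 3. In WT ethanol it was at 298, 305 and 268 and in KO ethanol at 224, 630.2 and 215 CPM, where KO ethanol 12 stood apart. The call held in 4 of 12 fits that left out 1 library, and the value was -0.71 (adjusted p = 0.542) without WT saline 13. Aldh1l1, the folate enzyme used to mark all astrocytes, was at 70.0, 69.4 and 114 CPM in WT saline against 45.2, 58.1 and 64.4 in KO saline, which do not overlap (-0.60 ± 0.41, adjusted p = 0.424). Fgfr3, a fibroblast growth factor receptor of glial progenitors, was at 28.3, 43.7 and 50.1 CPM in WT saline and 60.6, 54.3 and 54.5 in WT ethanol, which do not overlap either (0.47 ± 0.36, adjusted p = 0.477). In KO ethanol 12, which held 18 counts of Fgfr3, a single one of its 5 transcripts took 99.8% of them, against 5.27% to 29.9% in the other libraries. Acsbg1 (48.9 to 109 CPM) and Ntsr2 (5.88 to 32.6 CPM) were not called.

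Of the secreted and matrix proteins, Tnc changed in both comparisons with WT saline. Tnc (chr4:63959785-64047016, mm10) encodes tenascin C, a matrix glycoprotein of radial glia and young astrocytes. It was at 38.0, 33.4 and 36.2 CPM in WT saline, 53.1, 47.2 and 113 in WT ethanol, 61.7, 74.0 and 69.1 in KO saline and 79.3, 46.8 and 79.8 in KO ethanol. The 3 WT saline libraries lay close together and below the other 9. The log2 fold change was 0.98 ± 0.37 for ethanol in WT (adjusted p = 0.216) and 0.93 ± 0.37 between genotypes in saline (adjusted p = 0.205). The first was 0.42 (adjusted p = 0.572) without WT ethanol 14, and the first and second were 1.01 (adjusted p = 0.412) and 0.96 (adjusted p = 0.448) without WT saline 1. Tnc has the longest transcript of the 33, at 7100 bases. With the trend over length and GC content removed, the values were 0.17 (adjusted p = 0.857) and 0.05 (adjusted p = 0.960). Its promoter, on the minus strand at chr4:64046966-64047265, is shown since Tnc was called in both comparisons and is 1 of the 4 genes with GTGGGAA, which stands in capitals and begins 3 bases before the start.
Tnc: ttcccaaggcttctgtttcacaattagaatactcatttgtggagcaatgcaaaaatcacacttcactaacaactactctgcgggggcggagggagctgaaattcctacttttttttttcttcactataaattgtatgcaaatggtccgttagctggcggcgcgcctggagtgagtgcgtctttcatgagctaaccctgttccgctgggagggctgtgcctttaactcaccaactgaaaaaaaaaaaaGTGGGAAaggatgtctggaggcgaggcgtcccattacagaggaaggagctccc

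The other secreted proteins were not called by the edgeR fit that gave the reported values. Apoe was at 879.7, 621 and 881 CPM in WT saline, 1693, 701 and 542 in WT ethanol, 566, 436 and 926 in KO saline and 742, 2166 and 847 in KO ethanol, the extremes being WT ethanol 4 and KO ethanol 12. Sparcl1 ranged from 326 CPM in WT saline 13 to 1524 in KO saline 8 and gave 0.79 ± 0.47 (adjusted p = 0.356) between genotypes in saline. It depended on the measure, as Fabp7 did. In RPKM it was at 138, 198 and 67.9 in WT saline against 515, 567 and 567 in KO saline and 372, 331 and 424 in WT ethanol, without overlap, and limma on log2(RPKM + 1) gave 2.15 ± 0.42 (adjusted p = 0.132) between genotypes and 1.596 ± 0.42 (adjusted p = 0.233) for ethanol in WT. Sparcl1 was the 1 member that limma called in either comparison. Some fits on counts called it too. Between genotypes it was called in 7 of the 24 alternatives, among them DESeq2 (0.76, adjusted p = 0.285) and edgeR with library size alone (1.34, adjusted p = 0.137). With library size alone, edgeR also called it for ethanol in WT (1.06, adjusted p = 0.172). Mfge8, a secreted protein that tags dying cells for uptake, gave -0.87 ± 0.69 (adjusted p = 0.502) for ethanol in WT and -1.04 ± 0.69 (adjusted p = 0.409) between genotypes. Clu, a secreted chaperone, gave 0.54 ± 0.43 (adjusted p = 0.507) for ethanol in WT, and Bcan, a brain proteoglycan, ranged from 71.5 to 259 CPM.

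Transcript length moved with the direction of the calls. Over all genes, those called higher for ethanol in WT had a median transcript of 4352 bases and those called lower of 1348.5 bases, and between genotypes in saline the medians were 4634 and 1343 bases. Among the 33, the genes called higher were Hepacam (3347 bases), Nes (6126) and Tnc (7100), and those called lower were between 804 and 2786 bases. The part of length in these calls was not tested gene by gene, beyond the fits with the trend removed, in which Cldn10 and Hepacam for ethanol in WT, and Gjb6, Cldn10 and Vim between genotypes, passed the level. Hepacam was then at 1.23 ± 0.49 (adjusted p = 0.251) and Vim at -1.61 ± 0.67 (adjusted p = 0.292).

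The 2 libraries with the differing name letter weighed on both counts of calls. Without WT saline 3 and KO ethanol 12, 5 of the 33 were higher and 8 lower for ethanol in WT, and 3 were higher and 12 lower between genotypes in saline, of which 4 and 7 had an adjusted p under 0.05. The background of called genes rose too, to 55.4% and 56.4% of all genes, so the members again did not exceed it. An adjusted p under 0.05 was reached by 3220 of 14967 genes for ethanol in WT and by 3782 between genotypes in saline. The 4 and 7 members did not exceed these shares either. In that fit Cldn10 (-1.87 ± 0.37, adjusted p = 0.00971), Gjb6 (-1.94 ± 0.50, adjusted p = 0.0203), Aldoc (-0.92 ± 0.27, adjusted p = 0.0321) and Fabp7 (-1.83 ± 0.56, adjusted p = 0.0367) were lower after ethanol in WT. WT saline then rested on WT saline 1 and WT saline 13 alone, and ethanol in KO still gave 0 calls.

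**Figure D4:**
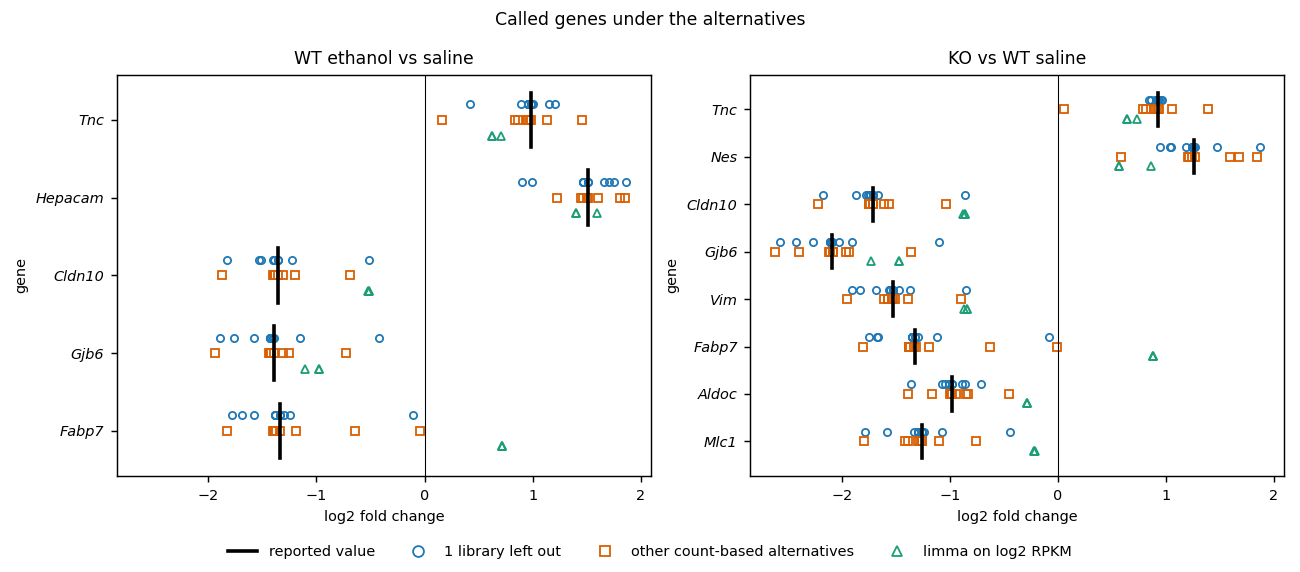
Log2 fold changes (x axis) of the called genes (y axis) for ethanol in WT and for KO against WT in saline. Black bars are the reported values, blue circles fits with 1 library left out, orange squares the other count-based alternatives and green triangles limma on log2 RPKM, which lie to the right of 0 for Fabp7 at 0.71 and 0.88 and to the left of 0 for Cldn10 and Gjb6.

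Genes outside the 33 that act in the same cells were also read. Of 18 gliogenic factors and receptors, 4 were higher and 0 lower for ethanol in WT, where 12.1% and 10.4% of all genes were. These were Nr2e1, a nuclear receptor of neural stem cells (1.67 ± 0.47, adjusted p = 0.180), Id4 (2.18 ± 0.72, adjusted p = 0.203), Stat3, the cytokine signal transducer needed for astrocyte formation (1.24 ± 0.44, adjusted p = 0.208), and Smad1 (0.97 ± 0.39, adjusted p = 0.230). Id4 was at 172 CPM in WT ethanol 4 and at 25.6 and 33.6 CPM in the other WT ethanol libraries. Of 39 other astrocyte-enriched genes tested, 10 were higher and 3 lower against the same background, led by Sfxn5, Daam2, Lcat and Ptprz1, with a median log2 fold change of -0.02, and between genotypes in saline 4 were higher and 10 lower with a median of -0.30, where 12.4% of all genes were higher and 13.4% lower. Of 27 reactive astrocyte genes tested, 0 were higher and 4 lower for ethanol in WT (S100a10, Timp1, Srgn and Psmb8) and 0 higher and 8 lower between genotypes, to be read against 10.4% and 13.4% of all genes called lower. The summed level of the reactive list was 1457, 335 and 523 CPM in WT saline and 221 to 569.7 in the other 9 libraries, so that WT saline 1 stood apart there as it did for Fabp7, Gjb6 and Cldn10.

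Markers of other cell types moved between the same groups. Microglia markers summed to 559.7, 120.3 and 707 CPM in WT saline, 181 to 312 in WT ethanol and 160.0 to 323 in KO saline, with 4 of 10 lower for ethanol in WT and 5 of 10 lower between genotypes, where 10.4% and 13.4% of all genes were lower. Meningeal fibroblast markers summed to 1476, 40.1 and 262 CPM in WT saline and 49.2 to 156 in KO saline, with 7 of 8 lower between genotypes and 0 of 8 called for ethanol in WT. Of 10 ependymal and choroid plexus markers 3 were higher for ethanol in WT, where 12.1% of all genes were, and up to 9 were at 0 in a single library. Neuron markers (2 higher and 1 lower of 14 for ethanol in WT), oligodendrocyte lineage markers (1 higher of 10) and endothelial and mural markers (2 higher of 10) were also read, with 22.5% of all genes called. Neuron markers summed to 11536, 9761 and 10512 CPM in WT saline and to 6199, 9631 and 8291 in WT ethanol, which do not overlap, and to 7694 to 10798 in KO saline and 6484 to 12315 in KO ethanol. The part of these cell types in the values of the 33 genes was not tested. The 33 genes themselves summed to 9710.0, 4755 and 7867 CPM in WT saline, and to 5754 to 9694 in WT ethanol. The sums were 5224 to 7705 CPM in KO saline and 5709 to 8769.7 in KO ethanol, and these ranges overlapped.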

How the data were processed

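Whole primary somatosensory cortex was sequenced as stranded RNA-Seq in 12 libraries, 3 per group. The authors filtered reads by quality, aligned them to mm10 (GRCm38) by Bowtie2, run inside TopHat, then used Partek Flow to quantify transcripts of RefSeq, per the study's methods. They deposited estimated counts, not normalized, per transcript. They also deposited RPKM per transcript, which when sorted give almost 1 common distribution (a quantile normalization). Whether the counting used strand is not given in the sources used here. For this work the estimated counts of 35840 transcripts were summed per symbol and rounded. Genes kept by filterByExpr were scaled by TMM and fitted with the quasi-likelihood test of edgeR 4.0.16, with 1 mean per group over all 12 libraries and 5 contrasts, in R 4.3.3. P-values were adjusted over all 14739 genes by Benjamini-Hochberg, and a gene was called at an adjusted p up to 0.30. Called values are log2 fold changes with SE. Levels are TMM-normalized CPM. Alternatives were DESeq2 1.42.0, limma 3.58.1 on the log2 RPKM with 1 or 0.1 added, other filters and scalings, only the groups compared, the top transcript per symbol, removal of each library's trend over GC content and length (5 spline degrees of freedom), the letter in library names, and each library left out in turn. The fits for ethanol in WT were tested on simulated data. Those data held no length trend and no outlying library, so the test does not cover these. The genes with values in every library were the 8 with the smallest p for ethanol in WT plus Gfap, Vim, Nes, Fabp7, Aqp4, Slc1a3, Hes5 and Apoe, and folds were given for up to 12 genes per contrast and up to 4 of each other list. The Sparcl1, Fgfr3, Aldh1l1, Mlc1, Aldoc and Gja1 values by library were chosen after their values were seen. The members and lists were chosen with earlier results of these data known. Depth limits precision most in KO ethanol 12.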

Additional observations from a re-analysis of the deposited data

Results flagged for a closer look

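Gjb6 encodes the gap junction subunit connexin 30. Its ethanol effect was called as different between genotypes by the test of the difference itself, as were 11.1% of all genes. The log2 fold change was -1.40 ± 0.66 (SE) in WT and 1.13 ± 0.69 in KO, with 3 libraries in each of the 4 groups, and the difference was 2.53 (adjusted p = 0.266 by edgeR, called at up to 0.30). Both group pairs overlapped. WT saline ran from 5.66 to 54.6 CPM and WT ethanol from 6.23 to 14.9 CPM. KO saline ran from 4.68 to 8.78 CPM and KO ethanol from 8.76 to 26.7 CPM, so the KO pair overlapped by a narrow margin. Over the alternatives the difference lay between 1.55 and 3.01, with adjusted p-values from 0.0841 to 0.506, and it was called in 11 of 23. The value of 1.55 came without WT saline 1, the library at 54.6 CPM, and was not called. With 1 library left out at a time, the call was kept in 6 of 12 fits.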

How the results depend on the processing

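Of 384 values from fits that left out 1 library, 300 kept direction and call, 72 lost a call, 12 gained one and 0 reversed. These values include genes that were not called over the 12 libraries and had no call to lose. The 300 therefore do not measure how stable the calls were. Genes that were called kept their call in 4 to 10 of 12 such fits. The fewest were for Gjb6 with ethanol in WT and for Aldoc and Mlc1 between genotypes in saline, and the most for Hepacam. Of 373 under the other alternatives, 274 were kept, 67 lost a call, 26 gained one and 6 reversed, all of these Fabp7 by limma on RPKM, at 0.71, 0.71 and 0.71 for ethanol in WT and 0.88, 0.88 and 0.88 for KO against WT in saline. Calls among the 33 genes for ethanol in WT (5) were 9 with library size alone, 1 by each of the 3 limma settings, 13 without the 2 libraries named with L, 2 with the length and GC trend removed and 0 with only the groups compared, where 27.5%, 2.31% to 3.73%, 55.4%, 16.1% and 0.279% of all genes were called. Between genotypes in saline (8) they were 1 by each limma setting, 15 without the L libraries, 3 with the trend removed and 5 with only the groups compared, beside 1.497% to 3.45%, 56.4%, 11.03% and 18.1% of all genes. For the difference in ethanol effect (1) they were 4 by DESeq2, 4 with library size alone, 5 with at least 10 counts in every library, 0 by limma, 7 without the L libraries, 0 with the letter as covariate and 0 with the trend removed, beside 18.0%, 13.6%, 24.5%, 0.0257% to 0.8995%, 28.9%, 0% and 0.190% of all genes. With 1 library left out, calls ranged from 0 to 11, 0 to 15 and 0 to 7 in these 3 comparisons and were 0 in the other 2. With library size alone the median log2 fold change of the 33 was 0.75, 0.38 and -0.52, where that of all genes was 0.49, 0.49 and -0.52, and by limma on log2(RPKM + 0.1) the last was -0.39. The cause of these moves was not tested. With 1 library left out, the member median ranged from -0.17 to 0.41 for ethanol in WT, -0.01 to 0.38 in KO, -0.30 to 0.17 and -0.48 to 0.18 between genotypes in saline and ethanol, and -0.35 to 0.33 for the difference. The group left with 2 libraries was taken to vary like the others. No paired analysis was possible because the groups share no library number. With 3 libraries against 3, an exact permutation test of a single gene cannot go below p = 0.1, and at 719735 counts KO ethanol 12 limits genes of low level most.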
